A study of Mus musculus with 15 samples.

Results

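The genes described here are the D cyclins Ccnd1, Ccnd2 and Ccnd3, their kinases Cdk4 and Cdk6, the kinase inhibitors Cdkn1a, Cdkn1b and Cdkn2c, and the pocket proteins Rb1 and Rbl1. They were chosen by symbol, and all 10 were found among the 23420 gene rows of the expression table. RNA was profiled in 15 libraries of 100 sorted cells each, 3 libraries in each of 5 groups of antigen-specific mouse B lineage cells from draining lymph nodes. All donor B cells carried 1 copy of the B1-8hi knock-in, an antigen receptor that binds the hapten NP, and the CD45.1 allele, on a C57BL6 background. They were transferred to C57BL6 recipients that were immunized with NP-CGG in CFA, and cells were sorted on day 12. Germinal centre cells came from donors that also carried 1 copy of a Bcl6-YFP reporter and were sorted as B220+ CD45.1+ CD38-low GL7-high. Dark zone cells (DZ) were CXCR4-high CD86-low. The light zone cells were CXCR4-low CD86-high and were split into Fraction 3 (CD69-low Bcl6-high), Fraction 2 (CD69-high Bcl6-high) and Fraction 1 (CD69-high Bcl6-low). Germinal centre derived plasmablasts (GC-PB) came from donors with an S1pr2-ERT2cre transgene and 1 copy of the ROSA-Ai14 reporter in place of Bcl6-YFP. Their recipients received tamoxifen on days 6, 7 and 8, and the cells were sorted as CD45.1+ CD138-high CD44-high tdTomato+. The plasmablasts therefore differed from the other groups in donor genotype and tamoxifen as well as in cell type, and only descendants of cells with S1pr2-driven Cre activity at the time of tamoxifen were labelled. The labels give no animal ages.

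D cyclins bind CDK4 or CDK6 and switch these kinases on early in G1. The active kinase phosphorylates the pocket proteins RB, p107 and p130, which otherwise hold E2F transcription factors inactive, so that genes of DNA replication can be transcribed. INK4 inhibitors such as p18 block CDK4 and CDK6 directly, while the Cip/Kip proteins p21 and p27 bind cyclin-kinase complexes more widely. In the germinal centre, cyclin D2 is known as a gene of light zone cells that have received help and induced Myc, cyclin D3 is known to sustain the divisions of dark zone cells, and p18 is known to be needed for the cell cycle exit of plasma cells.

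Levels are given in parts per 100,000 of the library total, with the ribosomal RNA precursor Rn45s left out of that total. On this scale 1 molecule was worth 0.278 to 0.603 parts, since the libraries held 165747 to 359076 molecules outside Rn45s as read from the steps of their values. Changes are differences of log2(level + 1) ± SE from limma, fitted to the 11190 genes above 0 in at least 3 libraries, and a gene was called where its Benjamini-Hochberg adjusted p was under 0.05. The pseudocount of 1 makes these differences smaller than the true log2 change for low genes. The labels call the libraries of a group independent preparations and name no animal for any of them, so that p-values measure the spread between libraries, which may be technical. In Fraction 1 and GC-PB the 6 libraries held 23.2 to 37.4 parts of Xist, and the 9 others held none. The Y-linked Ddx3y lay at 0.105 parts or less in those 6 and at 10.1 to 16.1 parts in the 9. Fraction 1 vs Fraction 2 crosses this divide with every library, so that the divide and the fraction cannot be told apart there. The F test and every order over the 5 groups contain the same divide. The B cell markers Cd79a, Cd79b, Ms4a1 and Cd74 were above 0 in all groups. Of 6 T cell genes, Cd3e and Cd4 were at 0 in every library, and Cd3d, Cd3g and Cd8a had 2 molecules or fewer in any library. Lck, the other one, had means of 4.73 to 13 parts in the germinal centre groups and 0.884 in GC-PB. The sum of the T cell list was 3.75 to 15.2 parts in the germinal centre libraries and 0 to 3.21 in GC-PB, and its part in the results was not tested. Sdc1, which encodes CD138, was 35.3 ± 5.71 parts (SD, n = 3) in GC-PB against group means of 0.102 or less elsewhere.

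Ccnd2, which encodes cyclin D2, was nearly absent from the dark zone and rose over the light zone fractions. In the DZ libraries it was 0, 0.118 and 0 parts, of which the middle value comes to 0.33 of a molecule, which is not a whole number. In Fraction 3 it was 0, 0.454 and 1.83 parts, or 0, 1 and 4 molecules. The ranges of these 2 groups overlapped, and both lay near or below the level of 3 molecules per library (0.835 to 1.81 parts over all libraries), so that a difference between them was not detectable at this depth (0.63 ± 0.30, adjusted p = 0.511).

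In Fraction 2 the Ccnd2 level was 12.2, 20.3 and 9.36 parts, above every Fraction 3 library. The difference was 3.16 ± 0.30 (adjusted p = 7.92e-06), and against DZ it was 3.78 ± 0.30 (adjusted p = 2.88e-07). The Fraction 2 libraries were spread, with a coefficient of variation of 40.8% where counting alone would give 14.6%. In Fraction 1 the level was 88.4, 66.0 and 83.9 parts, 5.70 times the mean of Fraction 2 (2.48 ± 0.30, adjusted p = 1.78e-05), with no overlap. In GC-PB it was 74.8, 85.8 and 57.8 parts, and the ranges of GC-PB and Fraction 1 overlapped (-0.13 ± 0.30, adjusted p = 0.776, and 0.16 on a scale of median ratios, adjusted p = 0.723). Ccnd2 was thus highest in Fraction 1 and GC-PB, which did not differ beyond their spread at equal totals, then Fraction 2, then Fraction 3 and DZ, which did not differ beyond theirs. Since these are bulk samples, fewer cells with the transcript and less transcript per cell cannot be told apart.

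Ccnd3, which encodes cyclin D3, ran in the opposite direction. It was 66.4, 52.9 and 53.2 parts in DZ, 49.9, 50.4 and 53.8 parts in Fraction 3 and 46.2, 48.4 and 42.5 parts in Fraction 2. These levels lay close together, and neither Fraction 3 vs DZ (-0.15 ± 0.17, adjusted p = 0.851), Fraction 2 vs Fraction 3 (-0.17 ± 0.17, adjusted p = 0.827) nor Fraction 2 vs DZ (-0.32 ± 0.17, adjusted p = 0.423) passed, although every Fraction 2 library lay below every DZ and Fraction 3 library. In Fraction 1 the level was 17.7, 17.8 and 21.7 parts, 0.417 times that of Fraction 2. This fall at equal totals was -1.22 ± 0.17 (adjusted p = 7.86e-05). It turned into a difference of 0.18 that did not pass (adjusted p = 0.439) in the values as deposited. There Fraction 1 had the larger totals, at a near equal number of molecules. Ccnd3 itself had 190 molecules in the Fraction 1 libraries together and 460 in those of Fraction 2. In GC-PB Ccnd3 was 3.62, 6.13 and 3.21 parts, which stand for 6, 12 and 6 molecules, below every Fraction 1 library (-1.95 ± 0.17, adjusted p = 5.96e-09). Bysl overlaps Ccnd3 on the opposite strand and had its highest mean, 9.06 ± 0.905 parts, in Fraction 1. The sources used here do not say whether the counting used strand, so that reads of a gene and of such a neighbour cannot be told apart, here and for the pairs below.

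The third D cyclin, Ccnd1, was represented by 1 molecule in 1 Fraction 2 library and was listed at 0 in the other 14. A count of 0 allows up to 3 molecules, so a level of more than 0.835 to 1.81 parts, depending on the library, would have been seen. It was not tested, because it was above 0 in fewer than 3 libraries.

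**Figure D1:**
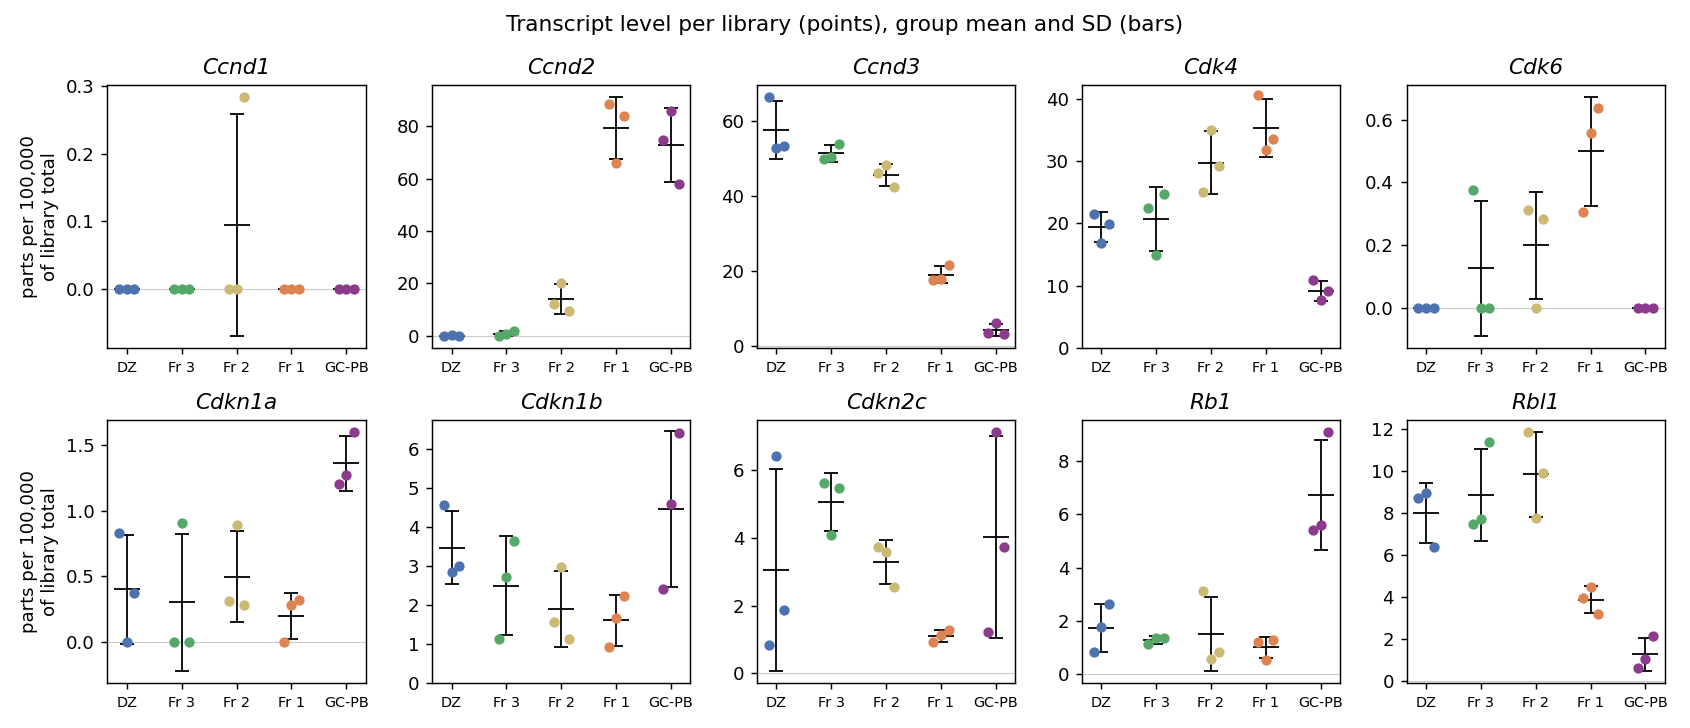
Level of each of the 10 genes in parts per 100,000 of the library total (vertical axes, each with its own range) for the 5 groups (Fr, Fraction). Points are libraries, and bars are the group mean and SD; Ccnd2 is highest in Fraction 1 and GC-PB, Ccnd3 is lowest in GC-PB, and Rb1 is highest in GC-PB.

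The level of Ccnd2 relative to Ccnd3 in the same library does not depend on the library total apart from the pseudocount. As log2(Ccnd2 + 1) minus log2(Ccnd3 + 1) it was -5.81 ± 0.245 (SD, n = 3) in DZ and -5.03 ± 0.702 in Fraction 3, where the ranges overlapped. It was -1.71 ± 0.445 in Fraction 2, 2.00 ± 0.229 in Fraction 1 and 3.82 ± 0.216 in GC-PB, and the ranges of these 3 groups did not overlap with each other or with DZ and Fraction 3. The sign changed between Fraction 2, where all 3 libraries were below 0, and Fraction 1, where all 3 were above. This step is also the one that crosses the divide in Xist. The values of DZ and Fraction 3 depend on the pseudocount because Ccnd2 was near 0 there, and the order of the groups was the same with pseudocounts of 0.25 and 4.

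**Figure D2:**
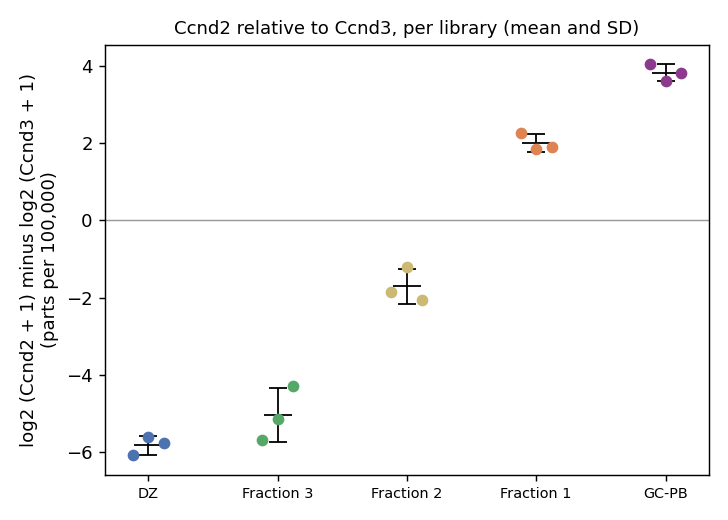
Ccnd2 relative to Ccnd3 in each library (points), as log2(Ccnd2 + 1) minus log2(Ccnd3 + 1) in parts per 100,000, with group mean and SD (bars). The DZ, Fraction 3 and Fraction 2 libraries lie below 0 and the Fraction 1 and GC-PB libraries above it.

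Of the kinases, Cdk4 was the one with levels that could be compared throughout. It was 21.6, 16.8 and 19.9 parts in DZ, 22.5, 15 and 24.6 parts in Fraction 3 and 25.0, 35.0 and 29.2 parts in Fraction 2. Every Fraction 2 library lay above every DZ and Fraction 3 library, but the differences of 0.58 ± 0.19 against DZ (adjusted p = 0.104) and 0.52 ± 0.19 against Fraction 3 (adjusted p = 0.289) did not pass. As deposited they did, at 0.85 for both (adjusted p = 0.018 and 0.0252). In Fraction 1 Cdk4 was 40.5, 31.7 and 33.5 parts, which overlapped with Fraction 2 (0.25 ± 0.19, adjusted p = 0.532, and 1.63 as deposited, adjusted p = 1.48e-06).

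In GC-PB the Cdk4 level was 10.9, 7.66 and 9.10 parts, the lowest of the 5 groups and below every library of the other 4. The fall from Fraction 1 to 0.261 times its mean was -1.83 ± 0.19 (adjusted p = 6.63e-08). In these libraries Ccnd2 had not passed the test, while its kinase partner was lower. Tspan31, which overlaps Cdk4 on the opposite strand, was highest in GC-PB, at 3.73 ± 2.36 parts. Cdk6, the other kinase of D cyclins, was represented by 8 molecules in all 15 libraries, 5 of them in Fraction 1, where every library had 1 or 2. It was listed at 0 in all DZ and GC-PB libraries. The difference between GC-PB and Fraction 1 was called (-0.58 ± 0.17, adjusted p = 0.0111), but all libraries of both groups were under the level of 3 molecules, so that no fold is given.

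The stretch of 250 bases before the RefSeq start of Cdk4 is shown because it holds the letters CACGTG at 4 places, the E-box core to which MYC and related factors bind. It lies at chr10:127063285-127063534 on the forward strand of GRCm38, the build named mm10 in the labels, and CACGTG, which reads the same on both strands, is in capitals.
Cdk4: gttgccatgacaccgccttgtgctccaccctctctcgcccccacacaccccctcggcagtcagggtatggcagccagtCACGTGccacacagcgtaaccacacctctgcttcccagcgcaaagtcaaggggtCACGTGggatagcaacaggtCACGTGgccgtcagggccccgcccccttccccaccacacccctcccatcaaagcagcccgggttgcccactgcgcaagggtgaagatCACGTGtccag
The first letters of these places lie 172, 118, 98 and 11 bases before the start. Of 32851 mouse promoter windows of the same length, 6.02% held CACGTG at least once and 7 held it at 4 or more places. Myc itself was 1.5 ± 0.558 parts in DZ, 7.85 ± 3.04 in Fraction 3, 11.6 ± 1.66 in Fraction 2, 31.6 ± 5.80 in Fraction 1 and 3.75 ± 1.98 in GC-PB (SD, n = 3). Both Myc and Cdk4 had their highest mean in Fraction 1, where the range of Cdk4 overlapped with that of Fraction 2. Cdk4 was lowest in GC-PB and Myc in DZ. The part of MYC in the Cdk4 levels was not tested. Promoters of 7 of the 10 genes (Ccnd3, Cdk4, Cdk6, Cdkn1a, Cdkn1b, Cdkn2c and Rbl1) were matched in the RefSeq table, and besides Cdk4 that of Cdk6 held CACGTG, at 1 place.

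Of the CDK inhibitors, Cdkn1a and Cdkn1b were called higher in GC-PB than in Fraction 1. Over all 15 libraries Cdkn1a had 19.5 molecules, Cdkn1b 104 and Cdkn2c 128. Cdkn1a, which encodes p21, was 1.21, 1.28 and 1.61 parts in GC-PB, or 2, 2.5 and 3 molecules. In parts this lay above every library of the other 4 groups, which ran from 0 to 0.908. In molecules it overlapped with them, since Fraction 2 replicate 2 had 3 and DZ replicate 1 and Fraction 3 replicate 2 had 2. A molecule was worth 0.51 to 0.603 parts in GC-PB and 0.278 to 0.456 elsewhere. No library was above the level of 3 molecules, so that no fold is given. Against Fraction 1, with 0, 0.278 and 0.319 parts, the difference was 0.99 ± 0.28 (adjusted p = 0.00779). It rests on 7.5 molecules in GC-PB and 2 in Fraction 1.

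Cdkn1b, which encodes p27, was 2.41, 4.59 and 6.42 parts in GC-PB and 0.915, 1.67 and 2.23 parts in Fraction 1, without overlap. The rise was 1.03 ± 0.37 (adjusted p = 0.0321), but it no longer passed when Fraction 1 replicate 1 (0.83) or 2 (1.07) or GC-PB replicate 2 (0.98) or 3 (0.78) was left out, nor as deposited (0.52, adjusted p = 0.141). The DZ libraries, at 4.56, 2.86 and 3.00 parts, lay within the range of GC-PB. Cdkn1b did not pass in any comparison among the germinal centre groups, where the means ran from 3.47 parts in DZ over 2.50 and 1.89 to 1.61 in Fraction 1 with overlap between each pair of neighbours.

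Cdkn2c, which encodes p18, was 5.62, 4.09 and 5.48 parts in Fraction 3, 3.74, 3.59 and 2.55 parts in Fraction 2 and 0.915, 1.11 and 1.28 parts in Fraction 1. These 3 groups did not overlap, but neither difference passed (-0.50 ± 0.44, adjusted p = 0.788, and -1.02 ± 0.44, adjusted p = 0.18). The other groups were more spread, with 0.83, 6.44 and 1.87 parts in DZ and 1.21, 7.15 and 3.75 parts in GC-PB, coefficients of variation of 97.9% and 73.9% against 34.6% and 36.1% from counting alone. In GC-PB vs Fraction 1 the difference was 1.07 ± 0.44 and did not pass (adjusted p = 0.0626). It passed without DZ replicate 1 (adjusted p = 0.0427) or 2 (0.0312) or GC-PB replicate 1 (0.00575), and on a scale of median ratios (1.29, adjusted p = 0.0286).

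The pocket protein genes Rb1 and Rbl1 went opposite ways in plasmablasts. Rb1, which encodes the retinoblastoma protein, was 5.43, 5.61 and 9.10 parts in GC-PB and between 0.557 and 3.12 parts in the 12 other libraries. In DZ it was 0.83, 1.79 and 2.62 parts, in Fraction 3 1.12, 1.36 and 1.37, in Fraction 2 3.12, 0.598 and 0.851, and in Fraction 1 1.22, 0.557 and 1.28. The germinal centre groups overlapped with each other, and the mean of GC-PB was 6.60 times that of Fraction 1 (1.92 ± 0.37, adjusted p = 0.000252). It stands on 37 molecules against 10. Rcbtb2, which overlaps Rb1 on the opposite strand, also differed, at 14.4 ± 2.86 parts in GC-PB and 1.69 ± 0.741 in Fraction 1. Its part in the Rb1 value was not tested.

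Rbl1, which encodes p107, was 8.71, 8.94 and 6.37 parts in DZ, 7.50, 7.72 and 11.4 in Fraction 3 and 11.9, 7.77 and 9.92 in Fraction 2. These groups overlapped, and no comparison among them passed. In Fraction 1 it was 3.96, 4.46 and 3.19 parts, below every library of those 3 groups. At equal totals it fell to 0.393 times the mean of Fraction 2 (-1.15 ± 0.27, adjusted p = 0.0102), while as deposited the difference had the opposite sign, 0.09 (adjusted p = 0.781). The call also depended on Fraction 2 replicate 1 (-1.02 without it, adjusted p = 0.0629) and on Fraction 1 replicate 3 (-1.04 without it, adjusted p = 0.052). In GC-PB Rbl1 was 0.603, 1.02 and 2.14 parts, or 1, 2 and 4 molecules, below every Fraction 1 library (-1.16 ± 0.27, adjusted p = 0.00156).

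The 250 bases before the RefSeq start of Rbl1 are shown because Rbl1 is known as a target of E2F as well as a partner of it. The stretch lies at chr2:157204535-157204784 on the reverse strand of GRCm38 and is written along the gene, with the letters TTTCGCGC, a form of the E2F motif, in capitals.
Rbl1: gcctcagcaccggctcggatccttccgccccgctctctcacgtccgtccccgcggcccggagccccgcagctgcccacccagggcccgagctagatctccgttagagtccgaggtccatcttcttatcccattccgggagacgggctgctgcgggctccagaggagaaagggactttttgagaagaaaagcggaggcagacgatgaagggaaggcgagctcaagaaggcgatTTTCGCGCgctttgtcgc
The motif begins 18 bases before the start. Searched on both strands, TTTCGCGC was found in 0.256% of all windows of this length, and the related form TTTGGCGC in 0.417%, while no other of the 7 matched genes held either of them. The motif TTCCNNGAA, a form of the site of BCL6 and STAT factors, was found in 4.06% of all windows and in none of those 7 genes.

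Read over the comparisons, Ccnd2 was the one of the 9 tested genes that passed among DZ, Fraction 3 and Fraction 2. In Fraction 3 vs DZ 0 of 9 were called by limma (the smallest adjusted p was 0.511, and 1 of 9 had an unadjusted p under 0.05), where 0.76% of all tested genes were called, 0.429% as higher and 0.331% as lower. In Fraction 2 vs Fraction 3 and in Fraction 2 vs DZ 1 of 9 was called, Ccnd2, against 0.42% and 3.08% of all tested genes. It was higher in both, as were 0.277% and 1.54% of all genes, while 0.143% and 1.55% were lower. In Fraction 1 vs Fraction 2 Ccnd2 was higher and Ccnd3 and Rbl1 were lower, 3 of 9 against 7.85% of all, of which 2.89% were higher and 4.96% lower. For Ccnd3 and Rbl1 this direction turns on the deposited scale. In GC-PB vs Fraction 1 7 of 9 were called, against 37% of all tested genes. Here Cdkn1a, Cdkn1b and Rb1 were higher, with 14% of all genes called in that direction, and Ccnd3, Cdk4, Cdk6 and Rbl1 were lower, with 23.1% of all. The median change of the 9 genes was -0.21 in Fraction 1 vs Fraction 2 and -0.13 in GC-PB vs Fraction 1, and that of all tested genes was -0.06 and -0.13.

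Over the 5 groups together, 7 of the 9 genes varied by limma's F test, and 45.5% of all tested genes did. The divide in Xist and Ddx3y is part of this variation and cannot be told apart from the groups. The adjusted p was 7.99e-14 for Ccnd2, 6.6e-13 for Ccnd3, 4.26e-07 for Cdk4, 9.19e-07 for Rbl1 and 0.000972 for Rb1. It was 0.0404 for Cdk6 and 0.0336 for Cdkn1a, and these calls rested on single libraries. Cdk6 did not pass without any 1 of the DZ or GC-PB libraries, Fraction 2 replicate 1 or 3, or Fraction 1 replicate 2 or 3 (adjusted p up to 0.161). Cdkn1a did not pass without Fraction 3 replicate 1 or 3, Fraction 1 replicate 1 or any 1 of the GC-PB libraries (adjusted p up to 0.122). Cdkn1b (0.0996) and Cdkn2c (0.0638) did not pass. Cdkn1b passed as deposited (0.00725), on median ratios (0.0315) and without GC-PB replicate 1 (0.0365). Cdkn2c passed with the replicate block (0.0447) and without DZ replicate 1 (0.0394) or 2 (0.011) or GC-PB replicate 1 (0.0112) or 2 (0.0412).

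**Figure D3:**
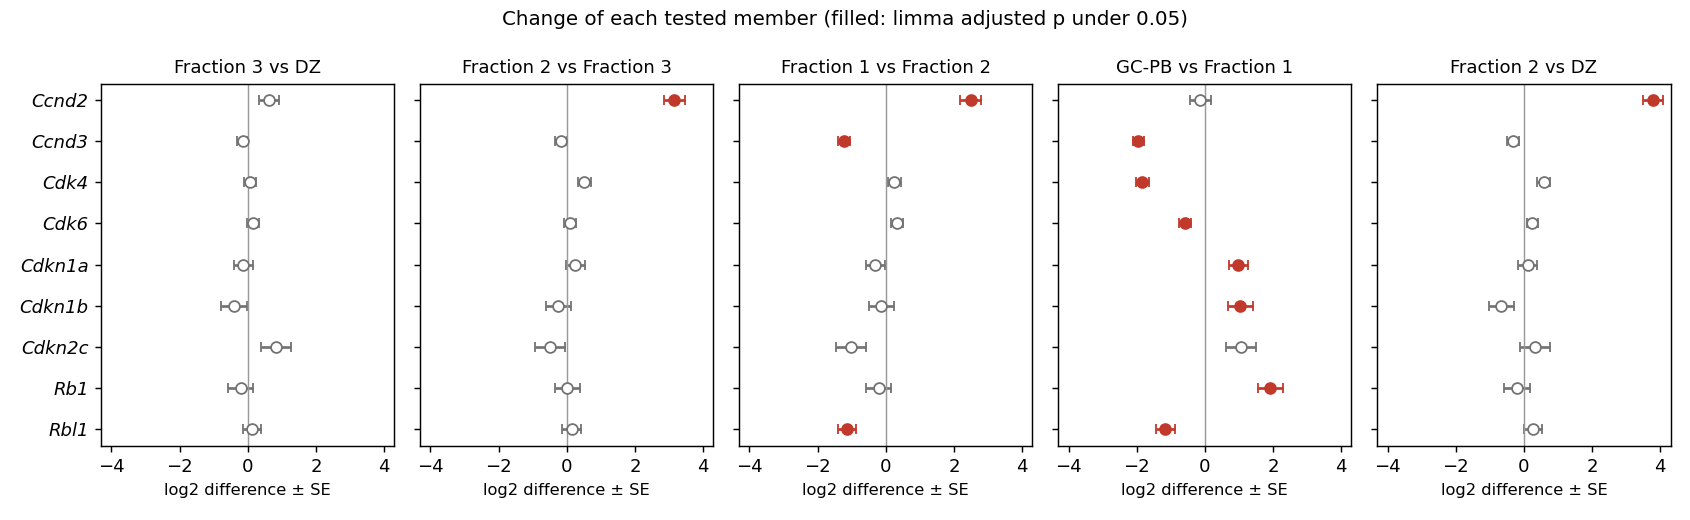
Change of the 9 tested genes in each comparison, as the difference of log2(level + 1) ± SE at equal library totals (horizontal axes), positive where the first group is higher. Filled red points passed at an adjusted p under 0.05: Ccnd2 alone in Fraction 2 vs Fraction 3 and in Fraction 2 vs DZ, Ccnd2, Ccnd3 and Rbl1 in Fraction 1 vs Fraction 2 (the last 2 of opposite sign as deposited), and 7 genes in GC-PB vs Fraction 1.

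Genes that act with the D cyclins were described by 7 lists. Of all tested genes 0.76% were called in Fraction 3 vs DZ, 0.42% in Fraction 2 vs Fraction 3 and 3.08% in Fraction 2 vs DZ. In each of these comparisons 0 of 54 tested genes of the first 6 lists were called by limma, which lies near those shares. In the same order 2, 4 and 6 genes of these lists had an unadjusted p under 0.05. These lists were E2F and DP factors, cyclin E and A with their kinase, and other CDK inhibitors by gene symbol with Rbl2. The others were turnover of D cyclins and p27, genes of DREAM and MuvB with Mybl2 and Foxm1, and E2F targets of S phase. Of the list of regulators, Myc was higher in Fraction 3 than in DZ (1.78 ± 0.28, adjusted p = 0.00374). In Fraction 2 vs DZ Myc was also higher (2.34 ± 0.28, adjusted p = 3.02e-05), and Tcf3, which encodes E2A (-0.70 ± 0.17, adjusted p = 0.025), and Foxo1, a factor that induces Cdkn1b (-0.77 ± 0.20, adjusted p = 0.0335), were lower. The Foxo1 call in Fraction 2 vs DZ was lost without any 1 of the 6 libraries (-0.87 to -0.66), and that of Tcf3 without any 1 of the DZ libraries (-0.73 to -0.68) or without Fraction 2 replicate 2 (-0.70) or 3 (-0.56). As deposited neither passed (-0.41 for Foxo1 and -0.34 for Tcf3).

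In Fraction 1 vs Fraction 2, 4 of 10 E2F and DP factors were lower and 0 higher (median of the list -0.63, of all genes -0.06). Of all tested genes 4.96% were lower and 2.89% higher in this comparison. E2f2, an activator of S phase genes, was 4.98 against 14.2 parts (-1.33 ± 0.19, adjusted p = 0.000104). E2f8 (-1.49) and E2f7 (-1.42), which encode repressor E2Fs, were lower too. Of 14 S phase targets 2 were lower, among them Rrm2, a subunit of ribonucleotide reductase, at 7.93 against 26.1 parts (-1.63 ± 0.32, adjusted p = 0.00243). In the DREAM and MuvB list Foxm1 (-1.20) was lower. Cdkn3 (-0.86), listed with the inhibitors by its symbol alone, was lower too. In the lists of cyclin E and A and of turnover 0 of 8 and 0 of 10 were called by limma, with 2 and 1 at an unadjusted p under 0.05. Among 7 regulators Myc was higher (1.37 ± 0.28, adjusted p = 0.00383), and Bcl6 (-1.89), whose reporter was used in the sort, and Foxo1 (-0.94) were lower. These directions hold at equal totals. As deposited Cdkn3 (0.25) and Foxo1 (0.40) had the opposite sign and E2f2 (-0.03), E2f8 (-0.26), E2f7 (-0.53), Foxm1 (-0.05) and Rrm2 (-0.26) did not pass.

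Several of these calls depended on single libraries. E2f8 did not pass when Fraction 2 replicate 2 (-1.33) or 3 (-1.26) or Fraction 1 replicate 1 (-1.27) was left out, nor E2f7 without the same libraries (-1.30, -1.33 and -1.16). Foxm1 did not pass without Fraction 2 replicate 1 (-0.92) or 3 (-1.19) or any 1 Fraction 1 library (-1.28 to -1.09), nor Cdkn3 without any 1 Fraction 2 library (-0.91 to -0.82) or Fraction 1 replicate 1 (-0.71) or 2 (-0.81). All 8 markers of cycling cells (Mki67, Top2a, Ccnb1, Ccnb2, Cdk1, Plk1, Aurka and Bub1) were above 0 in each group. Their summed level was 193 to 276 parts in DZ, 233 to 244 in Fraction 3, 226 to 233 in Fraction 2, 84.9 to 97.9 in Fraction 1 and 62.1 to 96.5 in GC-PB. It was thus lower in the same groups in which Ccnd3 and Rbl1 were low and Ccnd2 was high, and its part in these results was not tested.

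In GC-PB vs Fraction 1, 10 of 14 S phase targets were lower and 1 was higher (median of the list -1.17, of all genes -0.13). Of all tested genes 23.1% were lower and 14% higher, a share that the counts of 3 of 10 and 2 of 7 below lie near. Mcm4 (-1.86 ± 0.22, adjusted p = 4.87e-07) and Mcm2 (-1.78 ± 0.23), subunits of the replicative helicase, and Rrm1 (-1.80 ± 0.27) were among those lower. The gene that was higher was Rrm2 (1.11), which is named after its value was seen. Its libraries overlapped between the groups, and it did not pass without Fraction 1 replicate 3 (0.89) or GC-PB replicate 3 (0.73), nor as deposited (0.48). Of the E2F and DP factors 4 of 10 were lower and 1 higher. E2f4, which acts with p107 as a repressor, fell from 14.2 to 4.70 parts (-1.43 ± 0.23, adjusted p = 2.84e-05), E2f5 changed by -1.37, and E2f2 was the one that was higher (0.89), which did not pass as deposited (0.27, adjusted p = 0.23). Ccna2 was the 1 gene of 8 called in its list (-0.99). In the turnover list 3 of 10 were lower, Cks1b (-1.26), Cul1 (-0.83) and Ambra1 (-0.70), the last at 3 molecules or fewer in every library of both groups. In the DREAM and MuvB list 2 of 7 were lower, Mybl2 (-2.55) and Rbbp4 (-0.93). Of the list of other inhibitors by symbol with Rbl2, 0 of 5 passed by limma, with 1 at an unadjusted p under 0.05.

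Among the regulators in GC-PB vs Fraction 1, Bcl6 was listed at 0 in GC-PB, Myc changed by -2.84 and Trp53, whose protein induces Cdkn1a, by -2.05 to 4.33 ± 1.12 parts from 20.7 ± 0.936. The part of p53 in the Cdkn1a difference was not tested. Mdm2, also a p53 target and named after its value was seen, was higher (0.89 ± 0.27, adjusted p = 0.0121), but not as deposited (0.26, adjusted p = 0.362) or without Fraction 1 replicate 2 (0.79, adjusted p = 0.0532). The call of Ambra1 was lost without any 1 Fraction 1 library (-0.73 to -0.68) or GC-PB replicate 2 or 3 (-0.59 for both). All 6 plasma cell markers (Sdc1, Prdm1, Xbp1, Mzb1, Igj and Irf4) were above 0 in GC-PB, with a sum of 5111 to 6760 parts per library against 60.4 to 73.5 parts in Fraction 1. The share they take of the library total is part of every level in GC-PB.

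**Figure D4:**
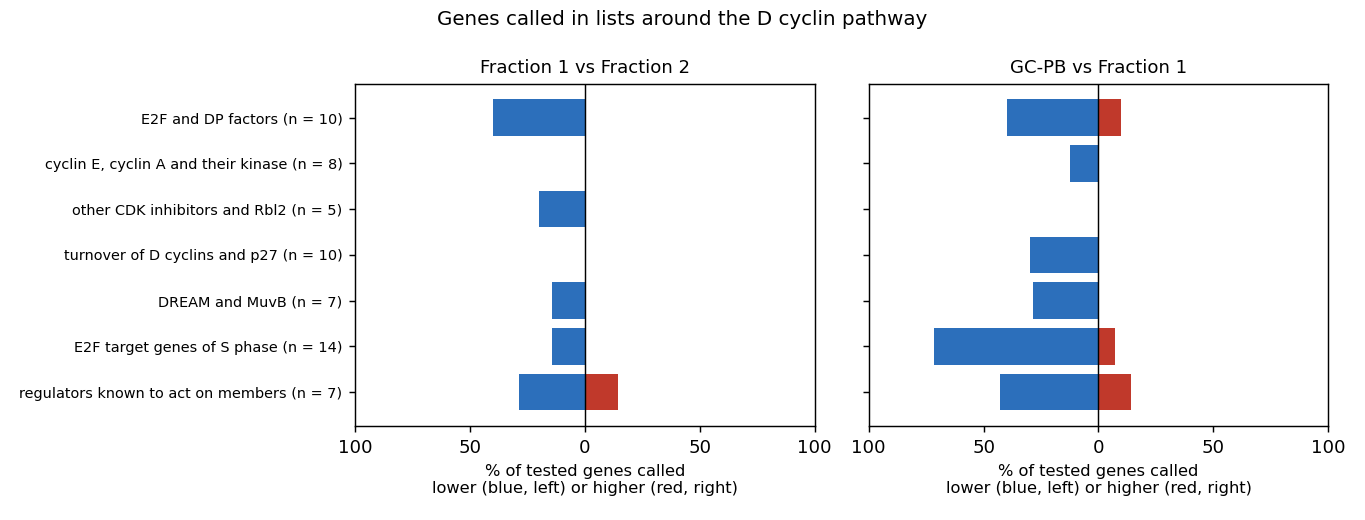
Share of the tested genes of each list that limma called lower (blue, left) or higher (red, right) in Fraction 1 vs Fraction 2 and in GC-PB vs Fraction 1, in percent, with the number of tested genes beside each name. Among S phase targets 2 of 14 were lower in the first comparison and 10 of 14 in the second.

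The scale decides the sign of some of these differences. Library totals as deposited were 107578 to 115088 in Fraction 1, 65535 to 77163 in GC-PB and 27942 to 41955 in the other groups. Outside Rn45s the mean number of molecules was 333531 in Fraction 1, 335982 in Fraction 2 and 182837 in GC-PB. As deposited 1 molecule was worth 0.318 on average in Fraction 1, 0.115 in Fraction 2 and 0.358 in GC-PB. The totals of Fraction 1 and Fraction 2 thus differed by this worth, at near equal molecules, and what set it is not given. The median change over all tested genes was 0.64 in Fraction 1 vs Fraction 2 and -0.42 in GC-PB vs Fraction 1 on the deposited scale. On that scale Ccnd2 was lower in GC-PB than in Fraction 1 (-0.82, adjusted p = 0.0037), and Cdk4 and Cdk6 (0.50, adjusted p = 0.000488) were higher in Fraction 1 than in Fraction 2. At equal totals Cdk6 did not pass there (0.33 ± 0.17, adjusted p = 0.303). On both scales Ccnd2 was higher in Fraction 1 than in Fraction 2, Ccnd3, Cdk4 and Rbl1 were lower in GC-PB than in Fraction 1, and Rb1 and Cdkn1a were higher there. Cdkn1a had 3 molecules or fewer in every library, and Cdk6 had 2 or fewer.

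**Figure D5:**
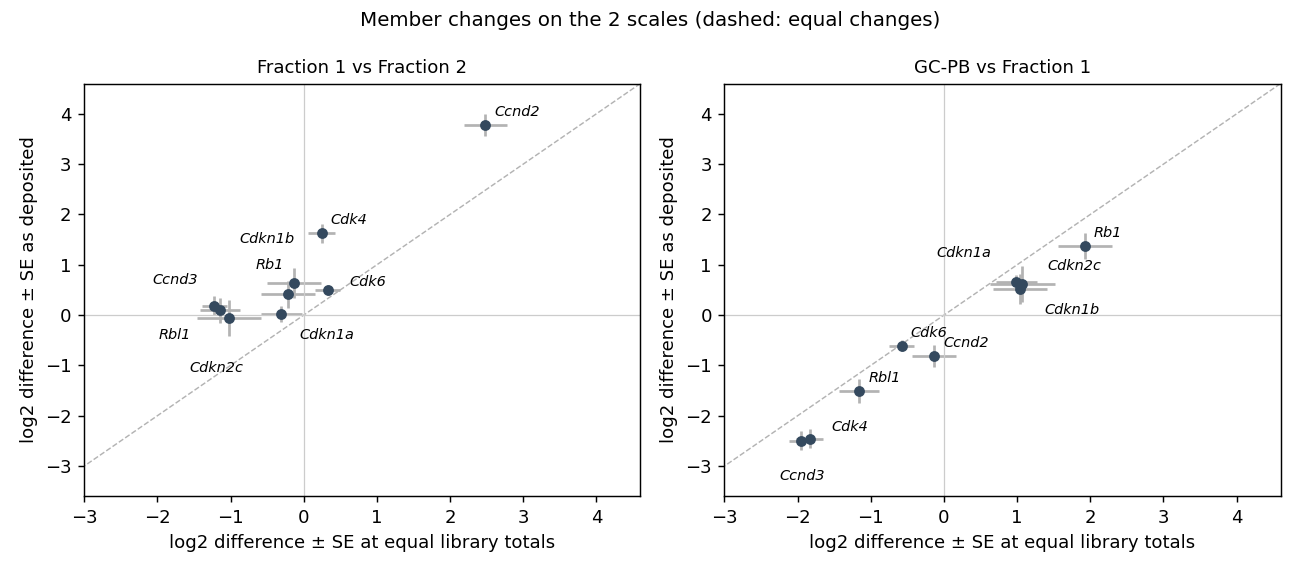
Changes of the 9 tested genes at equal library totals (horizontal axes) and as deposited (vertical axes), as log2 differences ± SE, for 2 comparisons; the dashed line marks equal changes. In Fraction 1 vs Fraction 2 all 9 points lie above the line, with Ccnd3 at -1.22 and 0.18, of opposite sign on the 2 scales.

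For each gene that passed the F test, the 3 genes most like it were found by Pearson's r of log2 values over the 15 libraries, among 3473 genes with a mean of at least 5 parts. These libraries share their groups and the divide in Xist, and r is given as a description. Nearest to Ccnd2 were Srm, which encodes spermidine synthase (r = 0.955), Cycs, which encodes cytochrome c (0.949), and Atp5g1 (0.936). Srm had means of 4.20 parts in DZ, 39.4 in Fraction 1 and 30.2 in GC-PB. Nearest to Ccnd3 were the kinase gene Lyn (0.992), 2700029M09Rik (0.99) and Bcl6 (0.988). Lyn was 29.6 parts in DZ, 26.2 in Fraction 3, 19.0 in Fraction 2, 8.82 in Fraction 1 and 1.79 in GC-PB.

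Nearest to Cdk4 were the chaperone genes Hspa8 (0.969) and Hsp90aa1 (0.951) and the cochaperone gene Ppid (0.947). Hspa8 was 434 parts in Fraction 1 and 110 in GC-PB. Nearest to Cdk6, which rests on 8 molecules, were 2810004N23Rik (0.885), Ptges3 (0.877) and Etf1 (0.863). Nearest to Rb1 were Arid3a (0.935), Ndufa2 (0.915) and Prdx4 (0.903), the last an endoplasmic reticulum peroxiredoxin at 70.1 parts in GC-PB and 5.90 or less elsewhere. Nearest to Rbl1 were H2afx, a histone variant gene (0.98), Smim14 (0.97) and Celf2 (0.967). For Cdkn1a they were Glipr1 (0.841), Dpm3 (0.815) and Plp2 (0.813).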

How the data were processed

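RNA of 15 libraries (3 in each of 5 groups, taken from the sample titles) was analysed from 1 table. Per the labels' protocols, ERCC spike-ins went into each lysate, and oligo-dT primed cDNA carried molecular barcodes before PCR. Per the submitters' processing notes, TopHat2 and mm10 were used, with no TopHat2 version given. How reads were counted and scaled is not given in the sources used here. The deposited table holds a signal per gene that is not a whole count. The commonest nonzero value of a library was read as the worth of 1 molecule, a reading that no source states. From 91% to 92.6% of nonzero values came out whole on it (within 0.02), too few for a count model.

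Values were divided by the library total without Rn45s, so that this constant cancels, and log2(value + 1) in parts per 100,000 was fitted with limma 3.58.1 in R 4.3.3 (trend, 5 group means, 5 contrasts and an F test). The method was tested on simulated data for Fraction 3 vs DZ only, with a fixed spread between libraries. Genes as low as Ccnd1, Cdk6 and Cdkn1a could get no planted change there, so that their calls are not covered. Figures were made in matplotlib 3.10.9 (Python 3.11.15). Positions came from GENCODE M21 and promoters from RefSeq, both on GRCm38.

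Named genes are the 10 members, at most 3 called genes with the smallest p per list, and the 3 most like genes of each member called by the F test; 1 gene that the rule names is not reported here. Members and lists were chosen with earlier results of these data known. Alternatives were pseudocounts of 0.25 and 4, the deposited scale, median ratios, no filter, a replicate block and leaving out each library.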

Additional observations from a re-analysis of the deposited data

How the results depend on the processing

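Of 12 changes of the D cyclin genes that were called, 9 were called with the same sign under all 21 alternatives, and the exceptions were Ccnd3 and Rbl1 in Fraction 1 vs Fraction 2 and Cdkn1b in GC-PB vs Fraction 1. As deposited, Ccnd3 (0.18), Rbl1 (0.092), Cdkn3 (0.25) and Foxo1 (0.40) changed sign in Fraction 1 vs Fraction 2. The deposited totals differ between these groups, while their numbers of molecules were near equal. On that scale the genes called over the whole table were 27 (85 at equal totals) in Fraction 3 vs DZ, 301 (47) in Fraction 2 vs Fraction 3, 6183 (878) in Fraction 1 vs Fraction 2, 6380 (4143) in GC-PB vs Fraction 1 and 7746 (5092) by the F test. The members called were 2 (1 at equal totals) in Fraction 2 vs Fraction 3 and 2 (1) in Fraction 2 vs DZ, with Cdk4 added. With a pseudocount of 4, 85 genes were called in Fraction 2 vs Fraction 3. The mean log2 ratio of Ccnd2 to Ccnd3 was -7.66 in DZ, -6.17 in Fraction 3 and 4.03 in GC-PB with a pseudocount of 0.25, and -3.92, -3.56 and 3.21 with a pseudocount of 4.

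When each library was left out in turn, the genes called over the whole table ran from 15 to 131 in Fraction 3 vs DZ, from 9 to 134 in Fraction 2 vs Fraction 3, from 463 to 1157 in Fraction 1 vs Fraction 2, from 3551 to 4130 in GC-PB vs Fraction 1, from 166 to 491 in Fraction 2 vs DZ and from 4637 to 5020 by the F test. The members called ran from 0 to 0, 1 to 1, 2 to 3, 6 to 8, 1 to 1 and 5 to 7 in the same order. The ratio of Ccnd2 to Ccnd3 ran from -5.92 to -5.68 in DZ, -5.41 to -4.71 in Fraction 3, -1.96 to -1.53 in Fraction 2, 1.87 to 2.08 in Fraction 1 and 3.70 to 3.92 in GC-PB.

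Libraries with the same replicate number did not visibly deviate together (correlations of -0.02 to 0.02 over 15 pairs, and 5 of 15 libraries correlated best with their own number). Low counts per gene could hide a shared deviation, so these values cannot decide whether the numbers pair the samples. With a replicate block 8 members were called in GC-PB vs Fraction 1 in place of 7, with Cdkn2c added (1.07, adjusted p = 0.0471), and 809 genes in place of 878 in Fraction 1 vs Fraction 2. The planned count model on recovered molecules was not run, since only 91% to 92.6% of nonzero values came out whole. Without changing a sign, Foxo1 in Fraction 2 vs DZ did not pass with a pseudocount of 0.25 (-0.79), Ambra1 in GC-PB vs Fraction 1 with a pseudocount of 4 (-0.23) or on median ratios (-0.65), and Cdkn3 in Fraction 1 vs Fraction 2 on median ratios (-0.76). In the F test Cdkn1a did not pass with a pseudocount of 0.25 (adjusted p = 0.0878) and Cdk6 with a pseudocount of 4 (0.056) or the replicate block (0.0541). Depth limits Ccnd1, Cdk6 and Cdkn1a most, which had 1, 8 and 19.5 molecules in all libraries together.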
